A study of Homo sapiens with 5 samples.

Results

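Of the 23905 replication origins that ini-seq 2 called after 3 hours, 847 had a GC content below 60% over the called interval and purines below 80% of the bases on both strands. These AT-richer origins that are not purine tracts were picked by the base composition of the hg38 sequence alone, and the rule uses neither efficiency, nor presence in the other lists, nor position among genes. The other 3-hour origins fell into 22482 with a GC content of 60% or more, called GC-rich here, and 576 with GC below 60% and purines of 80% or more on 1 strand, called purine-tract origins. The AT-richer origins covered 0.415 Mb, against 22.8 Mb for the GC-rich origins.

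The study mapped origins in EJ30 cells, an established human bladder carcinoma line, in 4 lists. For ini-seq 2, late G1 nuclei of mimosine-arrested EJ30 cells were incubated with a cytosolic extract of proliferating HeLa cells and Br-dUTP for 15 min or 3 hours, and replicated heavy-light (HL) DNA was separated from unreplicated light-light (LL) DNA on caesium sulfate gradients. For SNS-seq, short nascent strands of EJ30 cells were sequenced in a 0.5-2 kb and a 2-4 kb size fraction, and peaks were called against genomic DNA of the same cells. The 3-hour list held 23905 origins, the 15-min list 10181, the 0.5-2 kb fraction 147657 peaks and the 2-4 kb fraction 184966 peaks. Each condition is 1 list, the 3-hour list pools 2 biological replicates, and no list carries read counts, so there is no replicate error and the depth behind a single origin is unknown. The markers of the cell line could not be checked, since the lists hold genome intervals only.

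A replication origin is a site where loaded MCM helicases are activated and DNA synthesis starts on both strands. Human origins share no consensus sequence. Many of them lie at CpG islands, GC-rich stretches where CpG dinucleotides escaped loss by methylation and deamination and where most housekeeping genes start, and G-rich motifs that can fold into G-quadruplexes (G4) are frequent there. Long runs of purines on 1 strand, the composition that sets the purine-tract origins apart, can form other non-B structures such as triplexes.

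AT-richer describes these origins only against other origins. Their GC content ran from 39.3% to 59.9% with a median of 58.3%, so all but a few were GC-rich against the 40.9% of chromosomes 1 to 22 and X, and 488 of 847 lay within 2 points of the limit, at 58% or more. Only 112 were below 55% and 28 below 50%. A stretch of 100 bp with 60% GC or more was present in 809 of the 847, or 95.5% (95% exact Clopper-Pearson interval 93.9 to 96.8; all intervals given here cover counting error only). The mean GC content rose from 50.4% at 5 kb from the centre to 57.6% in its highest 100-bp bin, a smaller rise than at GC-rich origins, which went from 49.7% to 69.3%.

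**Figure D1:**
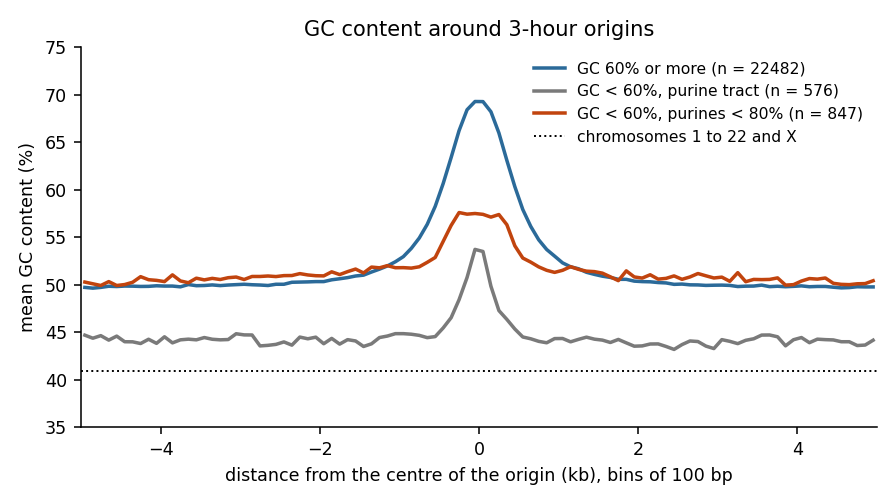
Mean GC content (%) in bins of 100 bp against the distance (kb) from the centre of the origin, for the 847 AT-richer origins, the 22482 GC-rich origins and the 576 purine-tract origins; the dotted line is the mean of chromosomes 1 to 22 and X, 40.9%. The AT-richer origins form a low, narrow GC peak of 57.6% on flanks of 50.4%, close to the flanks of the GC-rich origins and above those of the purine-tract origins at 44.4%.

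Stretches of 150 bases from the centres of 5 of these origins follow, read from hg38 on the plus strand with each CpG in capitals. The first is the centre of the origin over the start of COL5A3, the second that over the start of the lncRNA LINC02980, the third a region outside genes upstream of SOX5 and the fourth an intron of SLC19A1. These 4 are in all 4 lists, as are only 7 of the 847 members, so they do not stand for the set. The SLC19A1 one has the lowest GC content among those 7. The last is the origin nearest to the medians of length, GC, efficiency and purine content, in an intron of SCGB1D2.
COL5A3, chr19:10009876-10010025: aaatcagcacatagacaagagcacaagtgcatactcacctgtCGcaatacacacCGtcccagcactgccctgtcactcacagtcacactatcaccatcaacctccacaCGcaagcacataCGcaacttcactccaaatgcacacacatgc
LINC02980, chr6:25992376-25992525: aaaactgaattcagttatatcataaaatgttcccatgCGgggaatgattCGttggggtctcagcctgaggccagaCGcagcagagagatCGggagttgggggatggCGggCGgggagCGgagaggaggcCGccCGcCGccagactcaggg
SOX5 upstream, chr12:24563276-24563425: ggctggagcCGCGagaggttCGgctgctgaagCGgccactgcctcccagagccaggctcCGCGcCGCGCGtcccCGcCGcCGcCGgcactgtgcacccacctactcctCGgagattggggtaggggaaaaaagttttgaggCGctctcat
SLC19A1, chr21:45554626-45554775: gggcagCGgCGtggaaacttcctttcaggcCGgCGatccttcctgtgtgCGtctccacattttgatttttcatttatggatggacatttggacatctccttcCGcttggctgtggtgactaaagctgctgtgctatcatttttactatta
SCGB1D2, chr11:62244126-62244275: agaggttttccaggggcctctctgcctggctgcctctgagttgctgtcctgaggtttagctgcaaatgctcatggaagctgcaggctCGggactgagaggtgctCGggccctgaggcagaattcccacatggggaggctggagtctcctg

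The SOX5 upstream and LINC02980 stretches held 15 and 10 CpGs, whereas the stretch nearest to the medians held 2. The middle of the COL5A3 origin was a stretch of 50% GC with 4 CpGs, although a 100-bp window elsewhere in the interval reached 83.0% GC.

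Purine or pyrimidine runs of 50 nt or more were present in 190 of the 847 members. Another 2 stretches show such runs, with the longest run inside the printed stretch in capitals. The first comes from an origin of the high efficiency class and the second from the origin nearest to the purine limit.
High efficiency, chr3:73228026-73228175: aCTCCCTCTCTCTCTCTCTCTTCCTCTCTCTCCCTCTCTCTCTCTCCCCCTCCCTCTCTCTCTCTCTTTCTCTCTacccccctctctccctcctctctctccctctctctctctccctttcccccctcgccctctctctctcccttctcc
Purine limit, chr18:57313376-57313525: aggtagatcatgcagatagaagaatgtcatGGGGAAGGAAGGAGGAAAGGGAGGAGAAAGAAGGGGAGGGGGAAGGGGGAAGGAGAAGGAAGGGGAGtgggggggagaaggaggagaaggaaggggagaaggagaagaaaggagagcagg

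The capitals span 74 and 67 nt, and the longest run of the whole chr3 origin spans 87 nt. Thus an interval can stay below the purine limit as a whole while holding a purine run of this length.

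The AT-richer origins were the least efficient of the 3 sets. Efficiency, the share HL/(HL + LL) of normalised reads, had a median of 0.819 with quartiles of 0.808 and 0.840 and a highest value of 0.927, where the lower limit of calling is 0.8. The mean was 0.827 (SD 0.0238 over 847 origins), against 0.880 for GC-rich and 0.876 for purine-tract origins. Within chromosomes, AT-richer origins were lower than GC-rich origins by a mean difference of -0.0534 (SD 0.0110 over 22 chromosomes) and lower than purine-tract origins by -0.0486 (SD 0.00863), on 22 of 22 chromosomes each. Both gave an adjusted p of 1.44e-05 in a two-sided sign-flip permutation test over chromosomes with Benjamini-Hochberg adjustment over 26 tests, the smallest value that the number of flips allows. That p speaks of chromosomes of the same libraries and not of repeated cultures. The X chromosome held 1 of the 847 and did not enter.

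**Figure D2:**
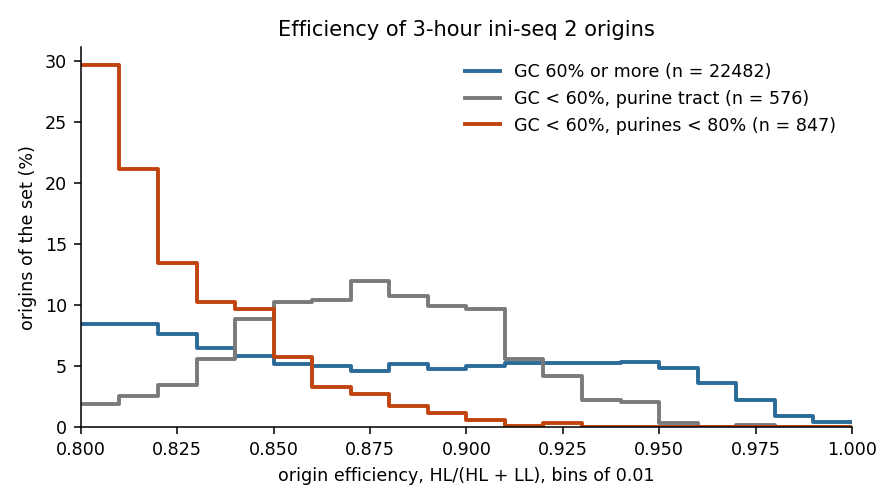
Share of origins (%) in bins of 0.01 of efficiency for the 3 sets. Of the AT-richer origins 29.6% lie in the lowest bin, from 0.80 to 0.81, and none reaches 0.93, whereas the GC-rich origins spread over the whole range and the purine-tract origins centre on a median of 0.876.

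In the 3 equal-sized efficiency classes used by the study, 651 of the AT-richer origins were low, 191 medium and 5 high. The high class held 33.3% of all 3-hour origins but 0.590% (interval 0.192 to 1.37) of these, a difference of -35.5 percentage points from the GC-rich origins (SD 7.84 over 22 chromosomes, adjusted p = 1.44e-05, sign-flip permutation test). The 5 were an origin in an intron of NCALD, chr8:101929101-101929400 (0.927), the chr3:73227801-73228400 origin shown above (0.921), chr2:88201101-88201400 (0.920), an origin in an APOBEC3A intron, chr22:38958601-38959100 (0.914), and chr18:46310801-46311100 (0.907). In the first 4 the longest purine or pyrimidine run spanned 52, 87, 69 and 158 nt, and in the last 11 nt. Their names were chosen after their values had been seen.

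Low efficiency was shared with the GC-rich origins just above the limit. Among all origins with purines below 80%, mean efficiency was 0.965 at 75% GC or more, 0.871 from 65% to 70% and 0.824 from 60% to 62%, then 0.823 from 58% to 60%. Below that it turned upward, to 0.827 from 55% to 58%, 0.839 from 50% to 55% and 0.852 below 50%. Against the 1307 origins of 60% to 62% GC alone, a comparison chosen after the data had been seen, the AT-richer origins were higher by 0.00394 (SD 0.00541 over 22 chromosomes, unadjusted p = 0.00187, sign-flip permutation test). Of the 28 members below 50% GC, 24 held a purine or pyrimidine run of 50 nt or more, and of the 488 at 58% or more, 44 did.

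**Figure D3:**
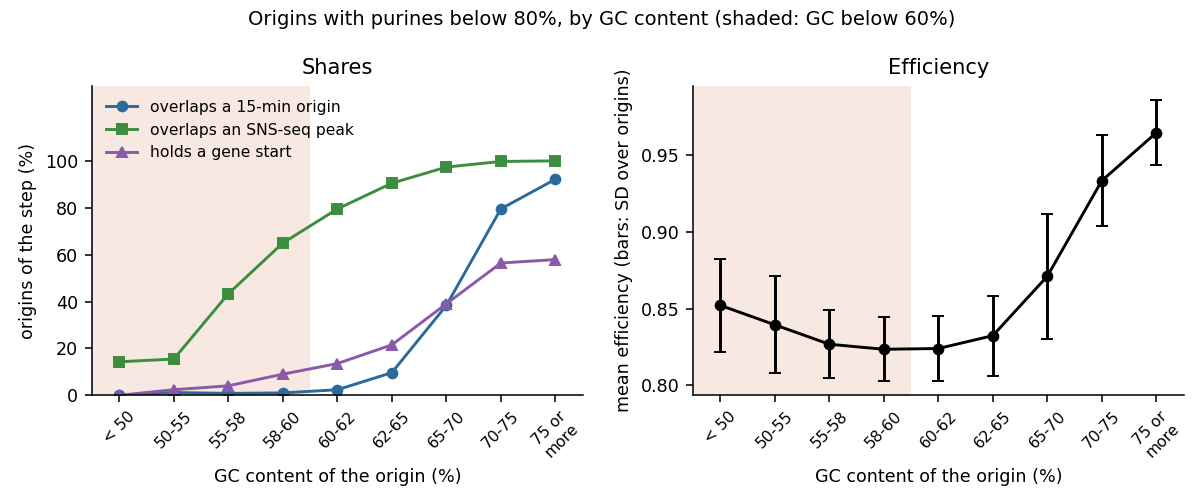
Origins with purines below 80% in steps of GC content (%), with the AT-richer origins shaded. Left, share (%) that overlaps a 15-min origin, overlaps an SNS-seq peak or holds a gene start; right, mean efficiency with SD over origins. The 3 shares fall toward low GC, from 100%, 92.2% and 57.9% at 75% GC or more to 14.3%, 0% and 0% below 50% (SNS-seq, 15 min, gene start), while efficiency is lowest from 58% to 62% GC and rises again below it.

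Only 8 of the 847 were also called after 15 min, which is 0.945% (interval 0.409 to 1.85), where 40.1% of all 3-hour origins were. The GC-rich origins overlapped a 15-min origin in 42.6% of cases, a difference of -42.1 points (SD 7.81 over 22 chromosomes, adjusted p = 1.44e-05, permutation test). Against the purine-tract origins, of which 2 of 576 (0.347%) were called, the difference was 1.09 points (SD 2.61, adjusted p = 0.0382, permutation test). It was positive on 7 of 22 chromosomes and negative on 1. The largest share, 11.1% on chromosome 21, was 1 of 9 members. The difference did not pass when only origins with no gene start were compared, at 0.747 points with an unadjusted p of 0.247, by the same permutation test. Weighting the other origins to the efficiency classes of the AT-richer ones left a difference of -10.4 points from the GC-rich origins (SD 4.49, unadjusted p = 1.00e-05, permutation test). Weighting them to the lengths instead left -19.7 points (SD 7.16, unadjusted p = 1.00e-05, permutation test). Above the limit the share rose steeply, with 2.37% of origins at 60% to 62% GC and 9.66% at 62% to 65%. Against the 60% to 62% step alone the AT-richer origins differed by -0.942 points (SD 3.71, unadjusted p = 0.253, permutation test), which is within the spread between chromosomes.

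The 8 were wider and richer in CpG than the other 839. Their median length was 1100 bp against 400 bp and their median CpG observed/expected ratio was 0.675 against 0.175. All 8 overlapped a peak of the 2-4 kb SNS-seq fraction and 7 a peak of both fractions. From the most to the least efficient, they lay in an intron of NPAS3, a neuronal transcription factor gene (chr14:32938301-32938700, 0.898), upstream of SOX5 (chr12:24562901-24563800, 0.887), over the start of TMX4-AS1 (chr20:8018201-8019800, 0.882), over the start of LINC02980 (chr6:25992001-25992900, 0.848), over a coding exon of OAZ1, which encodes an inhibitor of polyamine synthesis (chr19:2272801-2274100, 0.834), in an intron of SLC19A1, the reduced folate carrier (chr21:45554501-45554900, 0.819), over the start of COL5A3, a fibrillar collagen gene (chr19:10008601-10011300, 0.803), and over the start of ACADVL, a mitochondrial fatty acid dehydrogenase gene (chr17:7215501-7217800, 0.802).

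In these 8, the interval called at 15 min was GC-richer than the 3-hour interval in 8 of 8 cases, by 7.85 to 17.5 points with a median of 14. All 8 of those 15-min intervals were at 60% GC or more. At NPAS3, SOX5 and SLC19A1 the 15-min interval, of 1500, 800 and 1400 bp, reached outside the 3-hour interval. Its GC content and Z-score there describe sequence outside the member as well. The direction follows from the rule, which holds the 3-hour intervals below 60%, whereas the 15-min list has a median of 74.1% GC and only 3 of its 10181 intervals below that limit. At COL5A3 the 2700-bp origin had 58.4% GC, and the 300 bp called at 15 min, chr19:10010301-10010600, had 75.7%. At ACADVL a 300-bp interval of 71.7% GC lay within 2300 bp of 59.7% GC. The Z-score of efficiency within the 15-min list was below 0 for 7 of the 8, from -1.97 at SLC19A1, with 0.886 at NPAS3 as the exception. The 15-min list as a whole held 1 interval that meets the same limits of GC and purines, 0.00982% of 10181, against 3.54% of the 3-hour list.

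The short nascent strands placed these origins between the other sets. An SNS-seq peak of either fraction overlapped 441 of the 847, or 52.1% (interval 48.6 to 55.5), where 91.6% of all 3-hour origins had one. The GC-rich origins stood at 95.3% and the purine-tract origins at 6.94%. The differences were -45.6 points from the GC-rich (SD 12.8 over 22 chromosomes) and 42.7 points from the purine-tract origins (SD 13.2), each with an adjusted p of 1.44e-05 in the permutation test. With the GC limit of both sets at 55%, the difference from the purine-tract origins shrank to 6.58 points and did not pass (unadjusted p = 0.0664, permutation test over 9 chromosomes). The gap did not close just above the limit, since 79.5% of origins at 60% to 62% GC overlapped a peak, and the AT-richer origins differed from them by -29.4 points (SD 12.9, unadjusted p = 1.00e-05, permutation test). By chromosome the share ran from 18.8% of the 16 origins on chromosome 18 to 72.7% of the 22 on chromosome 4.

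Most of these overlaps came from the longer strands. The 2-4 kb fraction overlapped 431 AT-richer origins and the 0.5-2 kb fraction 174, and 164 had both, which is 19.4% against 77.7% of all 3-hour origins. The peaks they met were short, with a median of 660 bp in the 2-4 kb fraction, compared with 2312 bp at the GC-rich origins, and they covered a median of 81.8% of the interval. A peak within 5 kb was present for 763 of the 847, or 90.1%, where 97.6% of all origins had one. Here the GC-rich origins stood at 99.1% and the purine-tract origins at 50.2%, and the AT-richer origins differed from them by -11.6 points (SD 7.19) and 39.6 points (SD 12.7), each with an adjusted p of 1.44e-05 in the permutation test. The 84 with no peak within 5 kb had a median of 56.7% GC, and 36 of them held a run of 50 nt or more. With efficiency classes weighted to those of the AT-richer origins, the overlap difference from GC-rich origins was -41.4 points (SD 11.6, unadjusted p = 1.00e-05, permutation test).

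**Figure D4:**
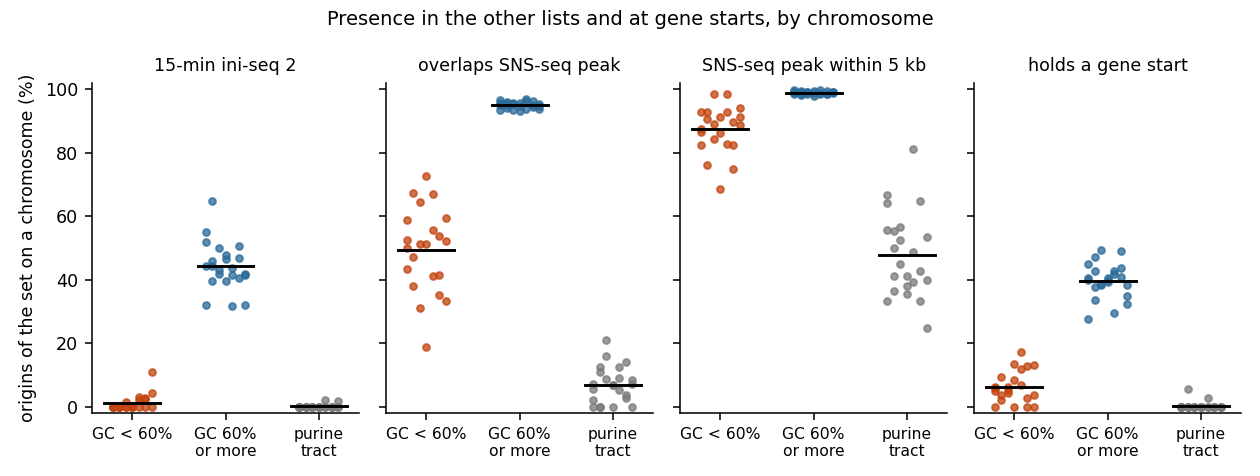
Share of origins (%) on each chromosome (1 point per chromosome with at least 5 origins of the set; line, mean over chromosomes) that overlap a 15-min origin, overlap an SNS-seq peak, have an SNS-seq peak within 5 kb or hold a gene start. For the AT-richer origins the share called at 15 min is at most 11.1% on any of 22 chromosomes, which is 1 of 9 origins on chromosome 21. The SNS-seq overlap of the AT-richer origins, 18.8% to 72.7%, lies below that of the GC-rich origins, 93.2% to 97.1%, on every chromosome shown.

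Only 7 of the 847 were in all 4 lists, 0.826% against 39.7% of all 3-hour origins, and 406 overlapped nothing in any other list. The 7 were the 8 above without ACADVL, whose nearest 0.5-2 kb peak lay 857 bp away. By width, the share with an SNS-seq overlap was 48.4% for the 366 AT-richer origins of 300 bp, the shortest length called, and 73.8% for the 42 longer than 1000 bp. At 300 bp the GC-rich origins still overlapped in 83.4% of cases.

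AT-richer origins lay mostly inside and between genes rather than at their starts. An intron held 351 of them, 261 were outside genes, 101 overlapped a coding exon and 78 another exon, and 56 held the start of a GENCODE gene, 38 of them a protein-coding one. The share with a gene start was 6.61% (interval 5.03 to 8.50), against 38.9% of the GC-rich and 0.347% of the purine-tract origins. These differences were -33.1 points (SD 7.01, adjusted p = 1.44e-05) and 5.97 points (SD 5.30, adjusted p = 5.20e-05) in the permutation test, the latter lost at a GC limit of 55% with 0.855 points. A longer interval can hold a start more easily. With the GC-rich origins weighted to the lengths of the AT-richer ones, the difference from them was -16.2 points (SD 6.23, unadjusted p = 1.00e-05, permutation test). The median distance to the nearest gene start was 9848 bp, compared with 785 bp for GC-rich and 19866 bp for purine-tract origins. The origins at 60% to 62% GC held a start in 13.5% of cases, which left the AT-richer ones at a difference of -6.68 points (SD 5.05, unadjusted p = 1.00e-05, permutation test).

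Members with a gene start held more CpG than the rest of the set. The 56 with any start had a median CpG observed/expected ratio of 0.719, above the 0.6 used to define CpG islands, and the 791 without had 0.169. The median was 0.727 at the 38 coding starts and 0.671 at the 18 other starts. Of the 38, 23 were above 0.6, while others were as poor as the rest of the set, such as SGCA at 0.113 and MYH6, a cardiac myosin gene, at 0.205. The most efficient of the 38 was MORN3, at 0.896 over 400 bp (chr12:121672401-121672800), followed by the zinc finger gene ZNF83 at 0.888. FIS1, a mitochondrial fission factor, was at 0.844, PARP2, a poly(ADP-ribose) polymerase of DNA repair, at 0.847 and GABARAP, an autophagy gene, at 0.837. The longest member of all was the 3600-bp origin over the start of HOXA5 (chr7:27142101-27145700), with an efficiency of 0.818 and peaks of both SNS-seq fractions. Among the 38, 28 overlapped an SNS-seq peak and 16 a peak of both fractions. By contrast LRIF1 and ZWINT, a kinetochore gene, had their nearest peak of either fraction more than 50 kb away, at 77347 and 206223 bp.

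Another 18 members held the start of a noncoding gene only, 16 of them lncRNAs. They included MALAT1, an abundant nuclear lncRNA (chr11:65497201-65498200), with an efficiency of 0.868, and SNHG32, a small nucleolar RNA host gene, with 0.858. The mean efficiency of these 18 was 0.836 (SD 0.0270), that of the 38 coding starts 0.825 (SD 0.0218), that of the 351 intronic members 0.827 (SD 0.0229) and that of the 261 outside genes 0.829 (SD 0.0259), so the position classes overlapped widely. The SNS-seq overlap went from 73.7% at coding starts through 66.3% at coding exons to 48.4% in introns and 45.2% outside genes.

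Of the 7596 3-hour origins over a protein-coding start, 38 or 0.500% were AT-richer. Gene families fixed as lists gave 2 of 15 origins over HOX starts (HOXA5 and HOXB13; interval 1.66 to 40.5%), 4 of 206 over C2H2 zinc finger starts (ZNF83, ZNF320, ZNF562 and ZNF616; 0.531 to 4.90%), 1 of 34 over cytosolic ribosomal protein starts (RPL13A) and 1 of 3 over histone starts (H2BC6). Over the starts of solute carrier genes it was 0 of 151, which allows a share of up to 1.99% at 3 counts of the total and 2.41% by the exact interval. Over those of replication licensing and initiation genes it was 0 of 15, which allows up to 20% and 21.8%. Lists this short leave wide intervals, and none was tested.

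The AT-richer origins were poor in CpG, and so, to a lesser degree, were the origins just above the GC limit. The mean CpG observed/expected ratio was 0.236, against 0.597 for GC-rich and 0.216 for purine-tract origins. This ratio is corrected for base composition but is not independent of it. It was lower than in GC-rich origins on 22 of 22 chromosomes (difference -0.370, SD 0.0797, adjusted p = 1.44e-05, permutation test) and differed from the purine-tract origins by 0.0123 (SD 0.0791, adjusted p = 0.512), within the spread between chromosomes. Against the origins of 60% to 62% GC the difference was smaller, at -0.0990 (SD 0.0762, unadjusted p = 1.00e-05, permutation test), and the median ratio went from 0.328 at 62% to 65% GC through 0.250 at 60% to 62% to 0.187 at 58% to 60%. The usual composition criterion of a CpG island, a ratio above 0.6 with GC above 50%, was met by 69 of the 847, or 8.15%, and by 56.6% of the GC-rich origins.

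A G4 motif, taken as 4 G runs of 3 nt or longer separated by 1 to 7 nt and searched on each strand, was present in 348 of the 847, or 41.1% (interval 37.7 to 44.5). The GC-rich origins held one in 72.3% and the purine-tract origins in 64.2%, with differences of -31.1 points (SD 8.32, adjusted p = 1.44e-05) and -24.2 points (SD 17.5, adjusted p = 2.74e-05) in the permutation test. The latter did not pass at a GC limit of 55%, at -9.92 points (unadjusted p = 0.332), or with composition taken over the central 300 bp, at -6.74 points (unadjusted p = 0.0579), by the same permutation test. The motif is made of G runs, so its count is not independent of the GC limit. Among the members, though, the G4 share was 39.8% at 58% to 60% GC and 38.5% at 55% to 58%. It was 56% at 50% to 55% GC and 42.9% below 50%. The part of GC content in the differences was not tested. The AT-richer origins were also shorter than the GC-rich ones, with a median of 400 bp against 800 bp (difference -357 bp, SD 49.5). With lengths weighted, the G4 difference from GC-rich origins was -11.7 points (SD 8.55, unadjusted p = 1.00e-05, permutation test). Against origins of 60% to 62% GC, with a median length of 500 bp, the difference in length was -54.5 bp (SD 92.5, unadjusted p = 0.0146, permutation test) and that in the G4 share -4.70 points (SD 10.8, unadjusted p = 0.0569, permutation test).

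In the central 300 bp, the GC box GGGCGG, the site of Sp1-family factors, was present in 12.6% of AT-richer origins, against 58.6% of all 3-hour origins and 29.7% of those at 60% to 62% GC. The TATA box TATAAA was present in 3.90% (2.70 to 5.43), against 1.38% of all origins and 2.45% (1.68 to 3.44) at 60% to 62% GC. The AP-1 site TGANTCA was present in 6.73% (5.14 to 8.63), against 3.11% of all origins and 5.66% (4.47 to 7.06) at 60% to 62% GC, and the CCAAT box CCAAT in 20.2% (17.5 to 23.1), against 15.8% of all and 22.6% (20.3 to 24.9) at 60% to 62% GC. Both strands were searched, and none of these 4 motifs contains another. The list searched was longer, and its other motifs had lower shares in AT-richer origins than in all 3-hour origins. The E-box stood at 3.54% against 6.35%, the ETS site at 0.708% against 1.83% and the YY1 site at 0.354% against 1.06%. The NRF1 half-site stood at 0.354% against 1.39% and the cAMP response element at 0.590% against 0.657%. All are matches of letters, with no test, and for all but the GC box the intervals overlapped those of the neighbouring GC step.

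Efficiency and SNS-seq overlap varied with purine content among the members. Most members were balanced, with 385 of 847 at 50% to 55% purines on the purine-richer strand, but 65 lay at 75% to 80%, next to the limit. From the balanced to the purine-rich end, mean efficiency went from 0.822 (SD 0.0206) to 0.856 (SD 0.0294), and the SNS-seq overlap from 62.6% (57.5 to 67.4) to 10.8% (4.44 to 20.9). The median GC content went from 58.7% to 54.7% and the share with a G4 motif from 32.5% to 67.7%. Purine content sets the limits of the set, so these steps are a description of its members. Spearman's rho between efficiency and purine content over the 847 members was 0.299, and it is given as a description, since the members come from 1 pooled set of libraries and differ in GC content and length as well.

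**Figure D5:**
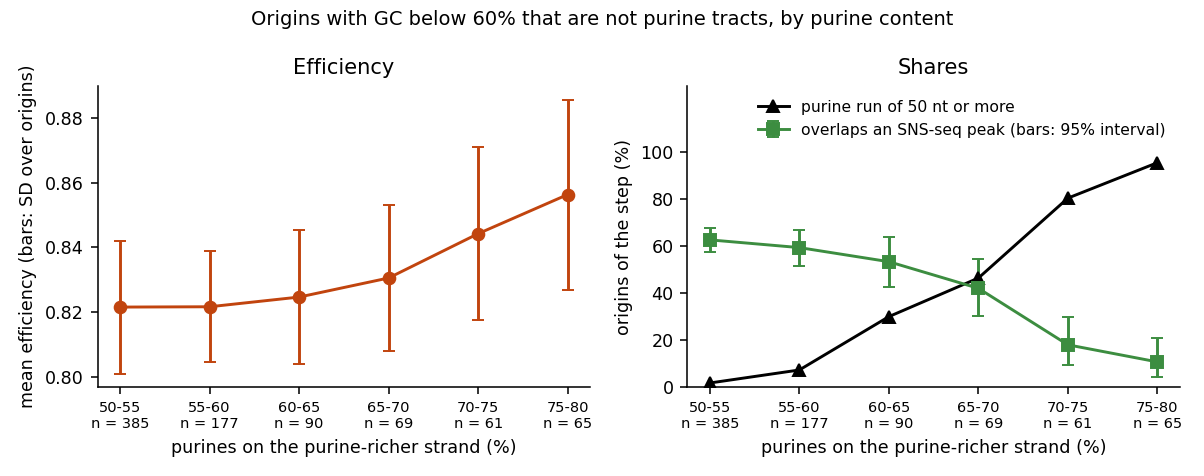
The 847 AT-richer origins in steps of purine content (%) on the purine-richer strand. Left, mean efficiency with SD over origins; right, share (%) overlapping an SNS-seq peak with 95% exact intervals and share with a purine or pyrimidine run of 50 nt or more. As the share with a long run goes from 1.82% to 95.4%, the SNS-seq overlap goes from 62.6% to 10.8% and mean efficiency from 0.822 to 0.856.

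Runs of 50 nt or more, as in the 2 stretches shown above, were present in 190 members, or 22.4% (19.7 to 25.4), against 1.61% of GC-rich and 96.9% of purine-tract origins. These 190 had a mean efficiency of 0.846 (SD 0.0283), an SNS-seq overlap of 22.1% and a gene start in 4 cases. The 552 members whose longest run was under 20 nt had a mean efficiency of 0.821 (SD 0.0191), an SNS-seq overlap of 61.2% and a G4 motif in 30.1%. Perfect tandem repeats of at least 20 nt with units of 1 to 6 nt occurred in 113 members, in 103 of them with units of A and G only, led by AG in 29, AGGG in 26 and AAGG in 21. In the GC-rich origins the leading unit was CCG.

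Repeated sequence was unevenly spread over the members. Of their 24-mers a mean of 3.24% occurred at 10 or more sites in the genome, against 0.335% in GC-rich and 16.9% in purine-tract origins (difference 3.07 points, SD 1.85, and -13.5 points, SD 4.90, each with an adjusted p of 1.44e-05, permutation test). In 625 of the 847 no sampled 24-mer did. At the stricter limit of 2 or more sites the mean was 7.04%, with an upper quartile of 8.88%, against 1.81% in GC-rich origins (difference 5.87 points, SD 3.08, unadjusted p = 1.00e-05, permutation test), and 529 of the 847 (62.5%) held no such 24-mer, as did 69.9% of the GC-rich origins. For 24-mers at 10 or more sites, the difference from GC-rich origins was 0.0934 points without the members that hold a run of 20 nt or more (SD 0.495, unadjusted p = 0.399, permutation test). This was not computed for 2 or more sites. Unique alignment drops reads from repeated sequence, and the part of this in the efficiency of the run-bearing members was not tested.

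The GC content 9 to 10 kb away averaged 49.7%, against 49.4% for GC-rich origins (difference 0.599 points, SD 2.18, adjusted p = 0.241) and 43.8% for purine-tract origins (difference 5.92 points, SD 2.43, adjusted p = 1.44e-05), by the permutation test. The nearest other origin lay at a median of 11.2 kb, compared with 10.1 kb and 51.1 kb, and for 761 of the 847, or 89.8%, it was a GC-rich one, as it was for 94.5% of the GC-rich origins themselves. An ini-domain, a chain of 6 or more origins each within 100 kb of the next, held 73.2% of the AT-richer origins, 67.4% of the GC-rich and 29% of the purine-tract origins. The difference of 5.20 points from the GC-rich origins (SD 11.6, adjusted p = 0.0556) did not pass, whereas that of 41.3 points from the purine-tract origins did (SD 14.9, adjusted p = 1.44e-05, permutation test). Against the 60% to 62% GC step the sign turned, at -6.46 points (SD 8.63, unadjusted p = 0.0021, permutation test).

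AT-richer origins made up between 1.95% of the 3-hour origins on chromosome 16 (interval 1.21 to 2.96) and 4.93% on chromosome 1 (4.08 to 5.90) of the autosomes, and on the X chromosome it was 1 of 293 (0.341%; 0.00864 to 1.89). Genome sequence of similar composition was rarely inside an origin. Of the 500-bp windows of chromosomes 1 to 22 and X with GC from 55% to 60% and purines below 80%, 3768 of 180495, or 2.09%, lay at least 50% inside a 3-hour origin of any kind. The share was 15.9% from 60% to 65% GC and 49.2% from 65% to 70%, and it fell to 0.128% from 50% to 55% and 0.0138% from 45% to 50%. Windows with purines of 80% or more at 55% to 60% GC lay inside an origin in 35% of cases (144 of 411). The limits themselves are open toward low GC, and 97.6% of all 500-bp windows met them. Of the SNS-seq peaks 69.9% in the 0.5-2 kb and 72.8% in the 2-4 kb fraction did, and these had a median GC content of 49.2% and 53.3%, lower than the 58.3% of the AT-richer origins.

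The limits cut a continuous range. Just inside the GC limit lay origins at EPHA2 (chr1:16150601-16151900, 59.9% GC, efficiency 0.802) and on chromosome 20 (chr20:59355301-59356500, 59.9%, 0.853), and just outside it an origin at EPHB2 (chr1:22727201-22727600, 60%, 0.831). Next to the purine limit, chr18:57313201-57313700 (79.8% purines, 0.830) and an origin at RABGAP1L (chr1:174642601-174642900, 20.3%, 0.874) lay inside, and chr1:77262701-77263100 (20%, 0.829) and an origin in the genes CD226 and DOK6 (chr18:69839001-69839300, 20%, 0.832) outside.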

How the data were processed

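The authors aligned reads to hg38 with Bowtie2, kept unique alignments, tallied both fractions over 100-bp windows, and joined windows within 500 bp into origins with a log2 HL/LL ratio of at least 2. The deposited 3-hour value is the fraction HL/(HL + LL), although its header names another quantity; it was used as deposited. The 15-min list carries a score, the Z-score of efficiency over that list, by the authors. SNS-seq peaks were called with MACS2 and give positions only. Versions of the aligner and the peak caller are not given in the sources used here.

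Composition, G4 motifs and repeats were computed from hg38, and positions from GENCODE 44 (Python 3, numpy, scipy, pandas). Overlap means 1 shared bp or more. Sets were compared within each chromosome holding at least 5 origins of both, and the mean difference was tested by 100000 sign flips over chromosomes (two-sided), with Benjamini-Hochberg adjustment over 13 measures and 2 comparisons. Alternatives changed the limits, distances and weights.

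The set, gene families, motifs and tests were chosen with earlier results of these data known. A part of the regions was named by rule: the most efficient in each position class among those of 500 bp or more in all 4 lists, the lowest GC contents, the longest, those next to each limit, and family starts. Others were named outside this rule, with their values known. These are the members that overlap a 15-min origin, those of the high class, the one nearest to the medians, and further gene starts such as MORN3, MALAT1 and ZWINT. Sequences overlapping a UTR or on chromosome 8 were not printed, so the OAZ1 and TMX4-AS1 stretches were left out. A few regions that the rule names are not reported here. The genomic DNA input was not analysed here. Of the 3-hour origins, 2 contain unknown bases.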

Additional observations from a re-analysis of the deposited data

How the results depend on the processing

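Of 108 alternatives that could change a value of the 13 measures against GC-rich origins, 86 kept direction and side of the 0.05 threshold (unadjusted p), and of 94 against purine-tract origins 79 did. Another 13 and 14 left every origin compared in place, because the X chromosome never entered and no origin with an efficiency of 1 was AT-richer or a purine tract, and these are not counted. No paired analysis was possible because the lists carry no replicate numbers, and leaving out a replicate was not possible because each condition is 1 list. The share of repeat-masked bases was not run, since the genome sequence used carries no repeat mask; repeated 24-mers took its place. Weighting by length was not run for length itself. The limits gave 112 members at 55% GC (on 9 chromosomes), 721 at a purine limit of 70% and 1443 in the central 300 bp. Of those 1443, only 673 were members by the whole interval as well. Several differences from GC-rich origins kept their sign there but shrank. The SNS-seq overlap went from -45.6 to -21.4 points and the 15-min share from -42.1 to -27.9. The gene-start share went from -33.1 to -19.7 points and the CpG ratio from -0.370 to -0.231. Against purine-tract origins the SNS-seq difference grew instead, from 42.7 to 64.2 points.

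Against origins of 60% to 62% GC, an alternative added after seeing the data, efficiency differed by 0.00394, the high class by 0.0425 points, the 15-min share by -0.942, the G4 share by -4.70, the ini-domain share by -6.46, log10 distance to the next origin by 0.205 and flanking GC by -0.775. The ini-domain share against GC-rich origins was 3.77 points with lengths weighted, and reversed to -11.1 at the 55% limit, -1.68 without gene starts and -1.80 with origins joined within 50 kb. The log10 distance reversed to -0.0437 at the 70% purine limit, -0.138 in the central 300 bp and -0.0125 without runs of 20 nt, and passed at 0.219 without gene starts. Flanking GC reversed to -2.12 at the 55% limit and -0.898 without gene starts, and passed at 1.14 (70% purine limit), 1.08 (central 300 bp), 1.39 (without runs of 20 nt) and 1.85 (no other origin within 10 kb). Repeated 24-mers fell short at 0.0934 without runs of 20 nt.

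Against purine-tract origins the 15-min share fell short at 0 points at the 55% limit, 1.0 with lengths weighted, 0.747 without gene starts, 1.04 without runs of 20 nt and 0.611 with 50% of the origin covered. At the 55% limit the SNS-seq overlap (6.58), the gene-start share (0.855) and the G4 share (-9.92) fell short too, and in the central 300 bp the G4 share (-6.74). Length reversed to 188 bp in the central 300 bp and passed at -63.6 bp without runs of 20 nt. The CpG ratio reversed to -0.0350 at the 55% limit and -0.0145 without gene starts, and passed at 0.0506 at the 70% purine limit and 0.168 in the central 300 bp. The causes were not tested. Depth per origin is unknown, so it sets no limit for single origins that can be stated here.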
